A study of Mus musculus with 16 samples.

Results

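Yap1, its paralogue Wwtr1 (the gene for TAZ) and genes tied to their activity were examined across airway epithelial cultures from mice. The set holds 10 of the 18193 genes measured: Yap1, Wwtr1, their DNA-binding partner Tead1, the pathway members Lats2, Amotl2 and Ajuba, and the target genes Ccn1, Ccn2, Ankrd1 and Axl. A gene's probe sets were those annotated to its symbol alone. The 10 genes had 24 such probe sets, and the probe set with the highest mean over the 16 arrays leads the account of each gene.

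The cells were airway epithelium from C57BL/6 mice grown at an air-liquid interface, where the apical cell surface faces air. There were 4 groups of 4 cultures, each on its own Affymetrix expression array. Mmp7-null cultures (genotype Mmp7-/-) lack matrix metalloproteinase 7, a secreted protease made by airway epithelium, and were either scratched or left uninjured; wild-type cultures were likewise scratched or left uninjured. Scratched cultures received 3 parallel scratches from a pipette tip. Serum was withheld from all 4 groups for the last 24 hours before RNA isolation, and the time between scratch and RNA isolation is not given in the sources used here. The sources do not say how the null allele was made, or whether any cultures shared an animal, so p-values measure only the spread between these cultures, which may be partly technical.

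YAP and TAZ are transcriptional coactivators of the Hippo pathway. The kinases LATS1 and LATS2 phosphorylate them and hold them in the cytoplasm; unphosphorylated, they enter the nucleus and bind TEAD proteins at target genes. Cell stretch, spreading and the loss of neighbours are known to raise their nuclear activity, and in mouse airway epithelium YAP is known for maintaining basal stem cells. The arrays measured transcripts only: neither the phosphorylation nor the location of the proteins was measured.

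RefSeq promoter sequence (build GRCm38.p6) was available for 8 of the 10 genes, all but Ccn2 and Tead1. It is shown because TEAD proteins are known to bind the letters GGAATG, so the window before a start site can be searched for them. Matches of these 6 letters on either strand were sought in the 250 bases before each start, and capitals mark GGAATG or its reverse complement CATTCC. The target genes Ccn1 (chr3:145649986-145650235, minus strand), Ankrd1 (chr19:36119845-36120094, minus strand) and Axl (chr7:25788734-25788983, minus strand) come first. They are followed by Amotl2 (chr9:102717554-102717803, plus strand), Ajuba (chr14:54577662-54577911, minus strand) and Yap1 itself (chr9:8004597-8004846, minus strand).
Ccn1: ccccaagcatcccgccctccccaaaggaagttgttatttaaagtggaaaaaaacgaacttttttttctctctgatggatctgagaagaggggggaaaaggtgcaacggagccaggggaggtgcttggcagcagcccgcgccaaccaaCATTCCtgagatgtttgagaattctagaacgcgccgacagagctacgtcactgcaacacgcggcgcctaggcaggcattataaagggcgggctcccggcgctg
Ankrd1: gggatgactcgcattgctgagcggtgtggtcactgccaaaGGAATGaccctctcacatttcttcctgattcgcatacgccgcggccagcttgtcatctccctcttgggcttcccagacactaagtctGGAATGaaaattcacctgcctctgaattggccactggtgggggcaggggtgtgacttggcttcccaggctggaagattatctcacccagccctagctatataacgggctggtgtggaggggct
Axl: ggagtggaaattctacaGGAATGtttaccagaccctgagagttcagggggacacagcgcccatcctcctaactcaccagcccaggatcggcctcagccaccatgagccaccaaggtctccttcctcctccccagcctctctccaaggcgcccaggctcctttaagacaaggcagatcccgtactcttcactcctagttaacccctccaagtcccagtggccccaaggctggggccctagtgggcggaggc
Amotl2: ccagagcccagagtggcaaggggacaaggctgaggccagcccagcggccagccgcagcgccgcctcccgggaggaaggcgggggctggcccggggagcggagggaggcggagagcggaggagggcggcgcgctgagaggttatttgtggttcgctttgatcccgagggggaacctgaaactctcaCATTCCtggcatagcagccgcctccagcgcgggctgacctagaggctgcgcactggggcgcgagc
Ajuba: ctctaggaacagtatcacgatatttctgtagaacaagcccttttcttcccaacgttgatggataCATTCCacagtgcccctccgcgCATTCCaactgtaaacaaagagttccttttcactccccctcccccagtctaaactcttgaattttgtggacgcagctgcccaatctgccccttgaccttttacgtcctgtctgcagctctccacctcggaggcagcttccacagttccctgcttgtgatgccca
Yap1: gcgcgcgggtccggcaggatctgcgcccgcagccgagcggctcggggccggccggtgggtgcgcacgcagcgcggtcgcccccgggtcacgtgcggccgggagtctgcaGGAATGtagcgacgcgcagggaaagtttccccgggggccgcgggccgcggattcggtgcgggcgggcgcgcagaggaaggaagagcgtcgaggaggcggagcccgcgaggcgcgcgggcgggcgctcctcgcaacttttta

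Of the 8 genes with a promoter, 7 (87.5%) held the letters in at least 1 window, against 14.4% of all 27025 genes with a promoter in the table. By window, 4153 of 32851 promoters (12.6%) held them, and 1.02% held several. The match began 103 bases before the start of Ccn1, 65 before that of Amotl2, 141 before that of Yap1 and 233 before that of Axl. The Amotl2 window lies within the annotated span of the gene (chr9:102717091-102733418), so the start it precedes is an internal one. The Yap1 and Axl windows overlap the spans of their genes in part. Ankrd1 held 2 matches, 210 and 123 bases before the start, and Ajuba also held 2, at 186 and 164 bases. Both annotated starts of Wwtr1 had a match (136 and 170 bases before), and neither start of Lats2 had one, which says only that these letters are not in those windows. Several of these genes are established TEAD targets from other work, so the share describes a set chosen for that biology. In the wider lists described further on, 11 of 27 other Hippo pathway genes (40.7%) and 2 of 15 other target genes (13.3%) held the letters.

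By their leading probe sets, Ccn1, Ccn2 and Yap1 itself were higher in scratched than in uninjured cultures of both genotypes. In Mmp7-null cultures Ccn1 was 3.12-fold, Ccn2 1.76-fold and Yap1 1.19-fold higher, and in wild-type cultures Ccn1 was 2.98-fold, Ccn2 1.53-fold and Yap1 1.21-fold higher. The Yap1 calls were close to the threshold, and its dimmer probe set was not called for scratching (log2 0.06 in Mmp7-null and -0.03 in wild-type cultures). Ccn1 probe sets 1457823_at and 1442340_x_at were higher on scratching in wild-type (log2 0.95 and 1.03) but not in Mmp7-null cultures (-0.40 and -0.08). Wwtr1, Tead1, Lats2, Amotl2, Ajuba, Ankrd1 and Axl did not pass the test for scratching in either genotype. Between genotypes, the leading probe sets of Amotl2 and Ajuba were lower in Mmp7-null than in wild-type uninjured cultures. No leading probe set passed in scratched cultures. The dimmer Yap1 probe set was called lower in Mmp7-null cultures (log2 -1.17 in uninjured and -1.08 in scratched cultures). Ccn1 probe sets 1457823_at and 1442340_x_at were called higher in Mmp7-null uninjured cultures (log2 1.05 and 0.91). None of these genotype calls was kept in a fit blocked by spike-in control set, described below. The difference between the genotypes' scratch responses was called for none of the 10 by limma. Each call was an adjusted p under 0.05 from limma with Benjamini-Hochberg adjustment. The adjustment was over all genes for leading probe sets and over all probe sets for the others.

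These counts stand beside the shares of all genes called. Scratching gave a call for 4.72% of all genes in Mmp7-null cultures (2.27% higher) and for 4.85% in wild-type cultures (2.55% higher), beside 3 of these 10 genes, all higher, in each genotype. Between genotypes, 4.79% of genes were called in uninjured cultures (2.5% lower), beside 2 of the 10, both lower, and 6.21% in scratched cultures, beside 0 of the 10. The difference of the scratch responses was called for 0.132% of genes and for 0 of the 10. At an unadjusted p under 0.05 (limma), 5 of the 10 passed for scratching in each genotype. Between genotypes 6 passed in uninjured and 0 in scratched cultures, and 1, Ajuba, passed for the difference of responses. The share of all genes at an unadjusted p under 0.05 was not counted. The median log2 difference of the 10 genes for scratching was 0.20 in Mmp7-null and 0.13 in wild-type cultures, against -0.02 and 0.01 over all genes. For Mmp7-null against wild-type it was -0.19 in uninjured and -0.10 in scratched cultures, against -0.01 and -0.04 over all genes.

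**Figure D1:**
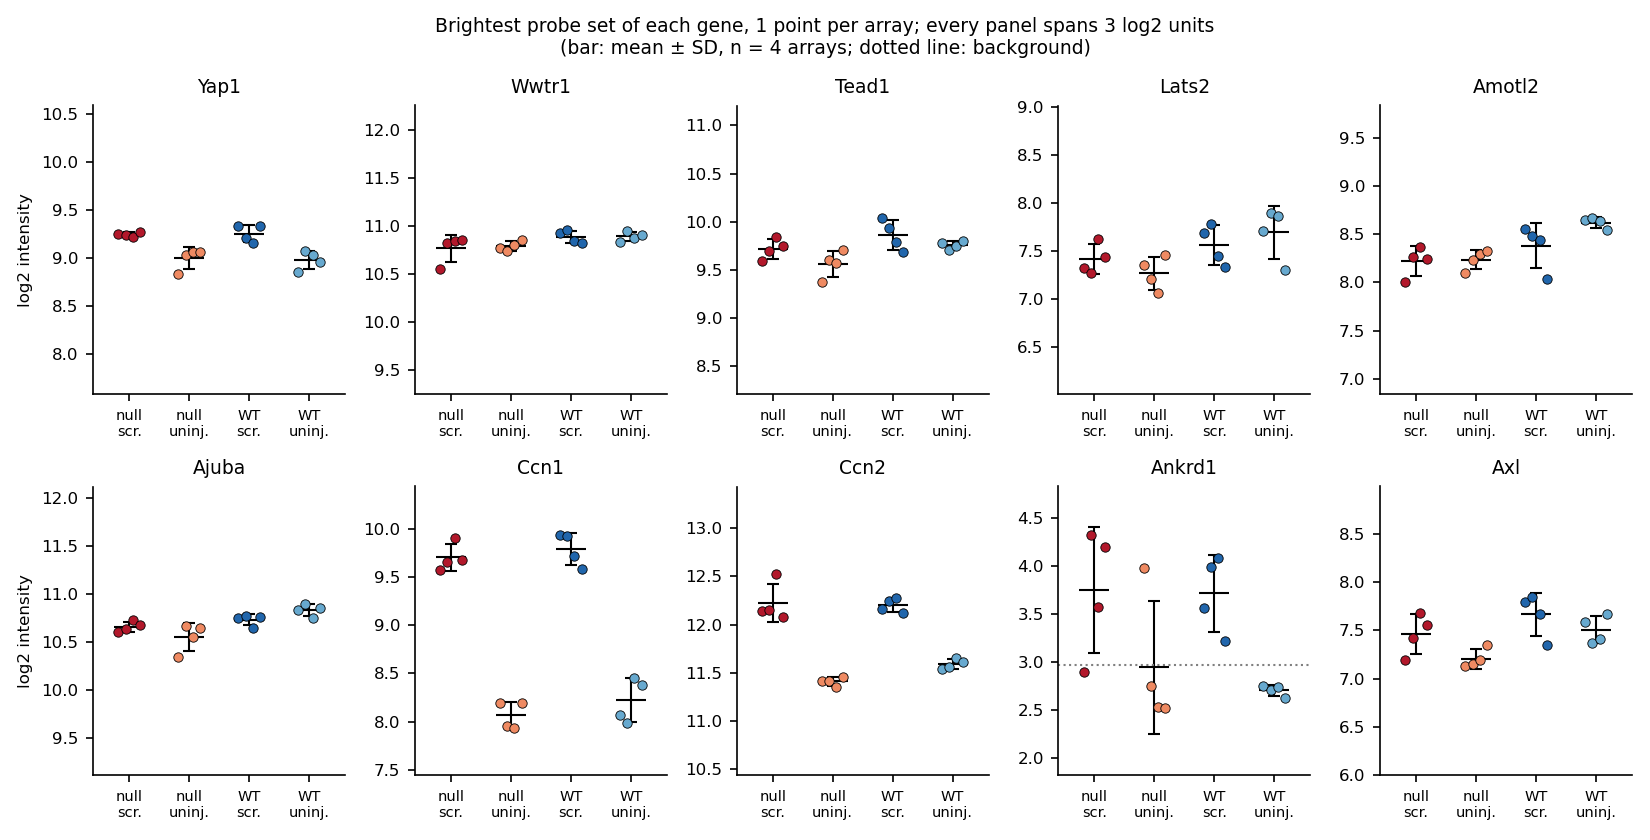
Signal (log2) of the leading probe set of each of the 10 genes on every array, with a point per array and the mean ± SD of each group of 4 (scr., scratched; uninj., uninjured; WT, wild-type); the dotted line in the Ankrd1 panel is the background level. Scratched arrays lie above uninjured arrays of both genotypes for Yap1, Ccn1 and Ccn2, with no overlap within a genotype.

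Some facts of the arrays bear on all results. The deposited signals were put on a log2 scale, and background was set at 2.97 log2 units, the 95th percentile of control probe sets for absent transcripts; 11655 genes (64.1%) exceeded it by the mean of their leading probe set. The Mmp7 probe set read 2.13 to 2.59 on all 16 arrays, below background in wild-type cultures too, so it does not check the genotype labels. Of 7 general epithelial markers, 6 were above background on all 16 arrays, while all 5 endothelial markers were below it on all 16. Of 9 fibroblast markers, 1 (Dcn) was above background on every array, and Dcn was higher in scratched cultures (1.23 in Mmp7-null, adjusted p 0.00357, and 1.58 in wild-type, adjusted p 0.000305, limma). The summed linear signal of the fibroblast markers ran from 146 to 170.5 in Mmp7-null scratched, 77.91 to 110.4 in Mmp7-null uninjured, 105.6 to 124.5 in wild-type scratched and 62.83 to 74.32 in wild-type uninjured cultures. Of 5 smooth muscle markers, 2 were above background on all arrays, and their summed signal ran from 264.7 to 514.4 in Mmp7-null scratched, 163.9 to 270.4 in Mmp7-null uninjured, 156 to 259.3 in wild-type scratched and 84.59 to 115.7 in wild-type uninjured cultures. Of 5 multiciliated cell markers, 4 were higher in Mmp7-null than in wild-type cultures, whether uninjured or scratched. Their summed signal ran from 3160 to 3874 in Mmp7-null uninjured against 1999 to 2172 in wild-type uninjured cultures, and from 2942 to 3434 in Mmp7-null scratched against 1669 to 2039 in wild-type scratched cultures. Of 7 leukocyte markers, 3 were above background and 4 below it on all arrays, and Ptprc, which defines leukocytes, was among those below. Their summed signal ran from 8903 to 11140 in Mmp7-null scratched, 6429 to 8749 in Mmp7-null uninjured, 8694 to 11050 in wild-type scratched and 6488 to 8649 in wild-type uninjured cultures. One of them, Cd68, was higher on scratching in wild-type cultures (1.03, adjusted p 0.000407) and lower in Mmp7-null than in wild-type scratched cultures (-0.92, adjusted p 0.00115).

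Some markers of other epithelial cell types passed the test too. Of 4 goblet cell markers, 2 (Muc5b and Agr2) were higher on scratching in each genotype, and the summed signal ran from 1904 to 2847 in Mmp7-null scratched, 585.5 to 993.6 in Mmp7-null uninjured, 3991 to 4410 in wild-type scratched and 610 to 737.2 in wild-type uninjured cultures. Agr2 was also lower in Mmp7-null than in wild-type scratched cultures (-0.74, adjusted p 0.00445). Of 7 basal cell markers, 2 were lower on scratching in each genotype (Krt5 in both, with Krt15 in Mmp7-null and Trp63 in wild-type). Their summed signal ran from 19690 to 23320 in Mmp7-null scratched, 26650 to 27950 in Mmp7-null uninjured, 22600 to 24160 in wild-type scratched and 24630 to 27400 in wild-type uninjured cultures. Of 4 alveolar type 1 markers, 2 were lower in Mmp7-null than in wild-type uninjured and 3 in scratched cultures, and the sum ran from 16280 to 19460 in Mmp7-null uninjured against 22460 to 23060 in wild-type uninjured cultures, and from 12490 to 16200 in Mmp7-null scratched against 19920 to 23080 in wild-type scratched cultures. The part of all these markers in the results below was not tested, and fewer cells of a type cannot be told apart from less RNA per cell in whole cultures.

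Single arrays and sets of arrays also stood apart. In wild-type scratched replicate 4 the actin control read 2.62 log2 units higher at its 3′ than at its 5′ end, against 1.53 to 1.93 on the other 15 arrays. The upper quartile of signal was 6.84 in wild-type scratched replicate 3 and 6.89 in Mmp7-null scratched replicate 1, against 6.97 to 7.06 on the others. Without these 3 arrays the Yap1 call was lost in both genotypes, and the calls of Ccn1, Ccn2, Amotl2 and Ajuba were kept. The arrays also fell into 3 sets by which spike-in control (Lys, Phe or Trpn) was bright, and the genotypes share only the Phe set, which holds 4 Mmp7-null and 2 wild-type arrays. Genotype results are therefore also given from a fit blocked by spike-in set, and for the Phe arrays alone. Within the Phe arrays each genotype comparison sets 2 Mmp7-null arrays against 1 wild-type array, so only the size of the difference is given.

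Yap1 encodes YAP and lies at chr9:7931999-8004638 (GRCm38.p6). Its leading probe set, 1448363_at, read 9.25, 9.24, 9.22 and 9.27 in Mmp7-null scratched cultures, against 8.83, 9.03, 9.06 and 9.06 in Mmp7-null uninjured cultures. It read 9.33, 9.20, 9.15 and 9.33 in wild-type scratched cultures, against 8.85, 9.07, 9.03 and 8.96 in wild-type uninjured cultures. Every scratched array lay above every uninjured one in both genotypes, and the 4 Mmp7-null scratched arrays lay within a narrow band. Yap1 was 1.19-fold higher on scratching in Mmp7-null cultures (log2 0.25, SE 0.0601, adjusted p 0.032, limma) and 1.21-fold higher in wild-type cultures (log2 0.27, SE 0.0601, adjusted p 0.0178). Mmp7-null minus wild-type was 0.02 in uninjured (adjusted p 0.983) and -0.01 in scratched cultures (adjusted p 0.929).

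The Yap1 calls were close to the threshold: under 11 alternatives other than leaving out 1 array, the call held in 4 in Mmp7-null and in 7 in wild-type cultures. In Mmp7-null cultures the call was lost on leaving out Mmp7-null uninjured replicate 1 (log2 0.19, adjusted p 0.0755) or replicate 2 (adjusted p 0.0615), or Mmp7-null scratched replicate 1, 2, 3 or 4 (adjusted p 0.0694, 0.0602, 0.0608 and 0.0669), and in the fit blocked by spike-in set (adjusted p 0.053). In wild-type cultures it was lost without wild-type uninjured replicate 1 (log2 0.23, adjusted p 0.0592) or wild-type scratched replicate 1 (log2 0.25, adjusted p 0.0547). Without the 3 arrays that stood apart, the adjusted p was 0.0686 in Mmp7-null (log2 0.25) and 0.0616 in wild-type cultures (log2 0.29). Within the spike-in sets the difference was 0.33 (Lys) and 0.17 (Phe) in Mmp7-null cultures and 0.47 (Phe, 1 array against 1) and 0.21 (Trpn) in wild-type cultures. It was positive in each of these fits.

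A dimmer Yap1 probe set gave another pattern. The probe set 1416487_a_at read 4.34, 4.28, 5.29 and 5.08 in Mmp7-null scratched cultures and 4.31, 5.03, 4.61 and 4.80 in Mmp7-null uninjured cultures. It read 5.97, 5.75, 5.66 and 5.92 in wild-type scratched cultures and 5.93, 6.22, 5.63 and 5.63 in wild-type uninjured cultures. All 8 Mmp7-null arrays lay below all 8 wild-type arrays, and scratched and uninjured arrays overlapped within each genotype. Over all probe sets, 2.2% were called between genotypes in uninjured and 3.22% in scratched cultures. The signal in Mmp7-null was 0.446 times that in wild-type for uninjured cultures (log2 -1.17, SE 0.228, adjusted p 0.0163 over all probe sets, limma) and 0.473 times for scratched cultures (log2 -1.08, adjusted p 0.019). For scratching, its log2 differences were 0.06 in Mmp7-null (adjusted p 0.91) and -0.03 in wild-type cultures (adjusted p 0.976). Blocked by spike-in set, the genotype differences were -1.25 (adjusted p 0.267) and -1.17 (adjusted p 0.171), and within the Phe arrays -1.23 and -1.19. The call in uninjured cultures was also lost without Mmp7-null uninjured replicate 1 (adjusted p 0.062) or 3 (0.0515), or wild-type uninjured replicate 1 (0.0537) or 2 (0.0514). That in scratched cultures was lost without Mmp7-null scratched replicate 1 (0.0535) or 2 (0.0592), or wild-type scratched replicate 1 (0.0514).

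Affymetrix names ending in _a mark probe sets that match alternative transcripts of a gene. Averaged over both, Yap1 was called lower in Mmp7-null uninjured cultures (log2 -0.57, adjusted p 0.0195), and its scratch differences were 0.15 (adjusted p 0.668) in Mmp7-null and 0.12 (adjusted p 0.728) in wild-type cultures. What the data show for Yap1, on scratching and between genotypes, thus depends on the probe set.

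Yap1 lies 232 kb from Mmp7 (chr9:7692090-7699585), the gene missing in the null cultures. Of 18 measured genes listed as Mmp7 and its neighbours on chromosome 9, 3 were called between genotypes in uninjured and 3 in scratched cultures. The shares of all genes called were 4.79% and 6.21%. Cfap300 was higher in Mmp7-null than in wild-type cultures (log2 1.16 in uninjured and in scratched cultures; adjusted p 0.000676 and 0.000414). Casp4, an inflammatory caspase, was lower (log2 -1.37 in uninjured and -1.41 in scratched cultures; adjusted p 3.64e-05 and 1.48e-05). Casp12 was higher in uninjured cultures (0.31, adjusted p 0.0338) and Casp1 lower in scratched cultures (-0.39, adjusted p 0.0327). On scratching, Casp12 was lower in Mmp7-null cultures (adjusted p 0.0262, limma). Birc3 was higher on scratching in Mmp7-null (adjusted p 0.00127) and in wild-type cultures (adjusted p 0.000236). Blocked by spike-in set, Casp4 stayed called in both states, and Cfap300 in scratched cultures alone (adjusted p 0.0369, against 0.0567 in uninjured cultures). Whether the position of Yap1 has a part in the dimmer probe set's difference was not tested.

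Wwtr1, the gene for TAZ (chr3:57455644-57575910), did not pass in any comparison. Probe set 1417818_at read 10.55, 10.82, 10.84 and 10.85 in Mmp7-null scratched and 10.77, 10.74, 10.80 and 10.86 in Mmp7-null uninjured cultures. It read 10.92, 10.95, 10.84 and 10.82 in wild-type scratched and 10.83, 10.95, 10.88 and 10.91 in wild-type uninjured cultures. The groups overlapped throughout, with Mmp7-null scratched replicate 1 the lowest array. The log2 differences for scratching were -0.02 in Mmp7-null (adjusted p 0.859, limma) and -0.01 in wild-type cultures (adjusted p 0.964). Mmp7-null against wild-type they were -0.10 in uninjured (adjusted p 0.506) and -0.12 in scratched cultures (adjusted p 0.253). The other Wwtr1 probe sets, 1437155_a_at and 1417817_a_at, were not called either.

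Tead1 (chr7:112679356-112906784) encodes a TEAD transcription factor, which brings YAP and TAZ to DNA. Probe set 1429556_at read 9.59, 9.69, 9.84 and 9.75 in Mmp7-null scratched and 9.38, 9.60, 9.57 and 9.70 in Mmp7-null uninjured cultures. It read 10.04, 9.93, 9.79 and 9.68 in wild-type scratched and 9.78, 9.70, 9.75 and 9.80 in wild-type uninjured cultures. The ranges overlapped in all comparisons. Scratching gave log2 differences of 0.16 in Mmp7-null (adjusted p 0.351, limma) and 0.11 in wild-type cultures (adjusted p 0.584), and Mmp7-null against wild-type gave -0.19 in uninjured (adjusted p 0.233) and -0.14 in scratched cultures (adjusted p 0.285). A further probe set, 1423434_at, exceeded background on 2 of 16 arrays. Among the other TEAD genes, Tead3 was above background on all 16 arrays, Tead2 on 1 and Tead4 on 0, and none was called.

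Of the genes that act on YAP and TAZ, Lats2, Amotl2 and Ajuba did not pass the test for scratching. LATS2, a kinase that phosphorylates YAP and TAZ, is encoded by Lats2 at chr14:57689662-57746212. Probe set 1439441_x_at read 7.32, 7.27, 7.63 and 7.44 in Mmp7-null scratched and 7.35, 7.21, 7.06 and 7.46 in Mmp7-null uninjured cultures. It read 7.69, 7.78, 7.45 and 7.33 in wild-type scratched and 7.71, 7.90, 7.86 and 7.31 in wild-type uninjured cultures. The wild-type groups were widely spread and overlapped the Mmp7-null groups. Scratch differences were 0.14 in Mmp7-null (adjusted p 0.726, limma) and -0.13 in wild-type cultures (adjusted p 0.716). Mmp7-null against wild-type they were -0.42 in uninjured (adjusted p 0.111) and -0.15 in scratched cultures (adjusted p 0.48).

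No other Lats2 probe set was called. Probe set 1437101_at read 5.89, 6.07, 5.98 and 6.45 in Mmp7-null uninjured cultures, against 6.74, 6.51, 6.56 and 6.53 in wild-type uninjured cultures. These groups did not overlap, but the difference of -0.49 was not called (adjusted p 0.272 over all probe sets, limma). Probe set 1419678_at differed by -0.54 in the same comparison (adjusted p 0.656), and 1426156_at and 1419679_at were below background on every array. Probe set 1425420_s_at exceeded background on 1 array, wild-type scratched replicate 4, at 3.31.

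AMOTL2, an angiomotin family protein that binds YAP at cell junctions, is encoded at chr9:102717091-102733418. Amotl2 probe set 1452387_a_at read 8.10, 8.23, 8.29 and 8.33 in Mmp7-null uninjured cultures, against 8.65, 8.67, 8.63 and 8.54 in wild-type uninjured cultures. It read 8.0, 8.27, 8.37 and 8.24 in Mmp7-null scratched cultures, against 8.56, 8.48, 8.44 and 8.04 in wild-type scratched cultures. The uninjured groups did not overlap, and the scratched groups did, through wild-type scratched replicate 4. Amotl2 in Mmp7-null uninjured cultures was 0.765 times its wild-type uninjured level (log2 -0.39, SE 0.102, adjusted p 0.0471, limma), and the difference was -0.16 in scratched cultures (adjusted p 0.321). For scratching it was -0.02 in Mmp7-null (adjusted p 0.941) and -0.24 in wild-type cultures (adjusted p 0.246).

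The Amotl2 call, close to the threshold, was kept in 4 of 16 fits that each left out 1 array (without Mmp7-null scratched replicate 1 or 3, or wild-type scratched replicate 1 or 4), and its adjusted p ran from 0.00736 to 0.16 over the 16. Blocked by spike-in set, the difference was -0.40 (adjusted p 0.284), and within the Phe arrays it was -0.34. With every probe set tested on its own the adjusted p was 0.0787.

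Ajuba encodes a LIM protein that binds and restrains LATS kinases, and lies at chr14:54567469-54577661. Probe set 1421344_a_at read 10.34, 10.66, 10.56 and 10.64 in Mmp7-null uninjured cultures, against 10.83, 10.89, 10.75 and 10.86 in wild-type uninjured cultures. It read 10.60, 10.63, 10.73 and 10.68 in Mmp7-null scratched cultures, against 10.74, 10.77, 10.64 and 10.76 in wild-type scratched cultures. The uninjured groups did not overlap and the scratched groups did. Ajuba in Mmp7-null uninjured cultures was 0.823 times its wild-type uninjured level (log2 -0.28, SE 0.0612, adjusted p 0.0177, limma), against a difference of -0.07 in scratched cultures (adjusted p 0.433). Its scratch differences were 0.11 in Mmp7-null (adjusted p 0.421) and -0.10 in wild-type cultures (adjusted p 0.47). The call was lost without wild-type uninjured replicate 2 (log2 -0.26, adjusted p 0.0529) and in the fit blocked by spike-in set (log2 -0.25, adjusted p 0.343), and within the Phe arrays the difference was -0.23.

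Ccn1 and Ccn2 encode secreted matricellular proteins, long known as CYR61 and CTGF, and are widely used readouts of YAP activity. Ccn1 (chr3:145646971-145649985) had 4 probe sets. The leading one, 1416039_x_at, read 9.58, 9.66, 9.91 and 9.68 in Mmp7-null scratched cultures, against 8.19, 7.95, 7.93 and 8.19 in Mmp7-null uninjured cultures. It read 9.94, 9.93, 9.72 and 9.59 in wild-type scratched cultures, against 8.07, 7.99, 8.45 and 8.38 in wild-type uninjured cultures. The lowest scratched array of either genotype stood more than 1 log2 unit above the highest uninjured array. Ccn1 was 3.12-fold higher on scratching in Mmp7-null cultures (log2 1.64, SE 0.117, adjusted p 8.79e-06, limma) and 2.98-fold higher in wild-type cultures (log2 1.57, SE 0.117, adjusted p 2.77e-06). The responses differed by 0.07 between genotypes (95% interval -0.29 to 0.43, adjusted p 0.855), and Mmp7-null against wild-type gave -0.16 in uninjured (adjusted p 0.683) and -0.09 in scratched cultures (adjusted p 0.629).

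Of the other Ccn1 probe sets, 1 moved like the leading one and 2 did not. Probe set 1438133_a_at read 7.93, 8.33, 8.45 and 8.41 in Mmp7-null scratched and 6.93, 6.85, 6.09 and 6.56 in Mmp7-null uninjured cultures. It read 8.90, 8.64, 8.21 and 8.29 in wild-type scratched and 6.61, 6.68, 6.96 and 7.18 in wild-type uninjured cultures. Over all probe sets, 2.25% were called for scratching in Mmp7-null and 2.39% in wild-type cultures. Like the leading probe set it was higher on scratching in both genotypes, by 1.67 in Mmp7-null (adjusted p 0.000973 over all probe sets, limma) and 1.65 in wild-type cultures (adjusted p 0.000538).

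Probe set 1457823_at read 6.11, 5.64, 6.17 and 5.69 in Mmp7-null scratched and 5.98, 6.16, 6.23 and 6.82 in Mmp7-null uninjured cultures. It read 6.28, 6.02, 6.39 and 6.13 in wild-type scratched and 5.32, 4.88, 5.50 and 5.30 in wild-type uninjured cultures. Here the wild-type uninjured arrays alone were low. Scratching gave -0.40 in Mmp7-null (adjusted p 0.405) and 0.95 in wild-type cultures (adjusted p 0.0142, over all probe sets, limma). Mmp7-null uninjured cultures read 1.05 above wild-type uninjured ones (SE 0.186, adjusted p 0.0097), with no overlap, and the difference was -0.30 in scratched cultures (adjusted p 0.302). Probe set 1442340_x_at read 6.38, 6.48, 6.56 and 6.24 in Mmp7-null scratched and 5.92, 6.53, 6.59 and 6.94 in Mmp7-null uninjured cultures. It read 6.74, 6.50, 6.49 and 6.75 in wild-type scratched and 5.64, 5.09, 5.66 and 5.96 in wild-type uninjured cultures, which were again the low group, with a small overlap. Its differences were -0.08 (adjusted p 0.861) on scratching in Mmp7-null, 1.03 (adjusted p 0.0136) in wild-type, and 0.91 (adjusted p 0.0318) for Mmp7-null against wild-type in uninjured cultures.

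The difference between the genotypes' scratch responses was -1.35 at 1457823_at (adjusted p 0.105) and -1.12 at 1442340_x_at (adjusted p 0.281), so neither passed a test that called 0.0866% of all probe sets. Under 1 of 8 alternatives other than leaving out 1 array, that at 1457823_at was called (adjusted p 0.0497, limma). Blocked by spike-in set, the uninjured genotype differences were 1.09 at 1457823_at (adjusted p 0.194) and 1.01 at 1442340_x_at (adjusted p 0.228). Without the 3 arrays that stood apart, the wild-type scratch differences were 0.90 at 1457823_at (adjusted p 0.102) and 1.03 at 1442340_x_at (adjusted p 0.0944). The genotype call at 1442340_x_at was also lost without Mmp7-null uninjured replicate 2, 3 or 4 or wild-type uninjured replicate 1, 2 or 3 (highest adjusted p 0.088). The 4 probe sets all name Ccn1, and which transcript each one detects is not given in the sources used here.

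**Figure D2:**
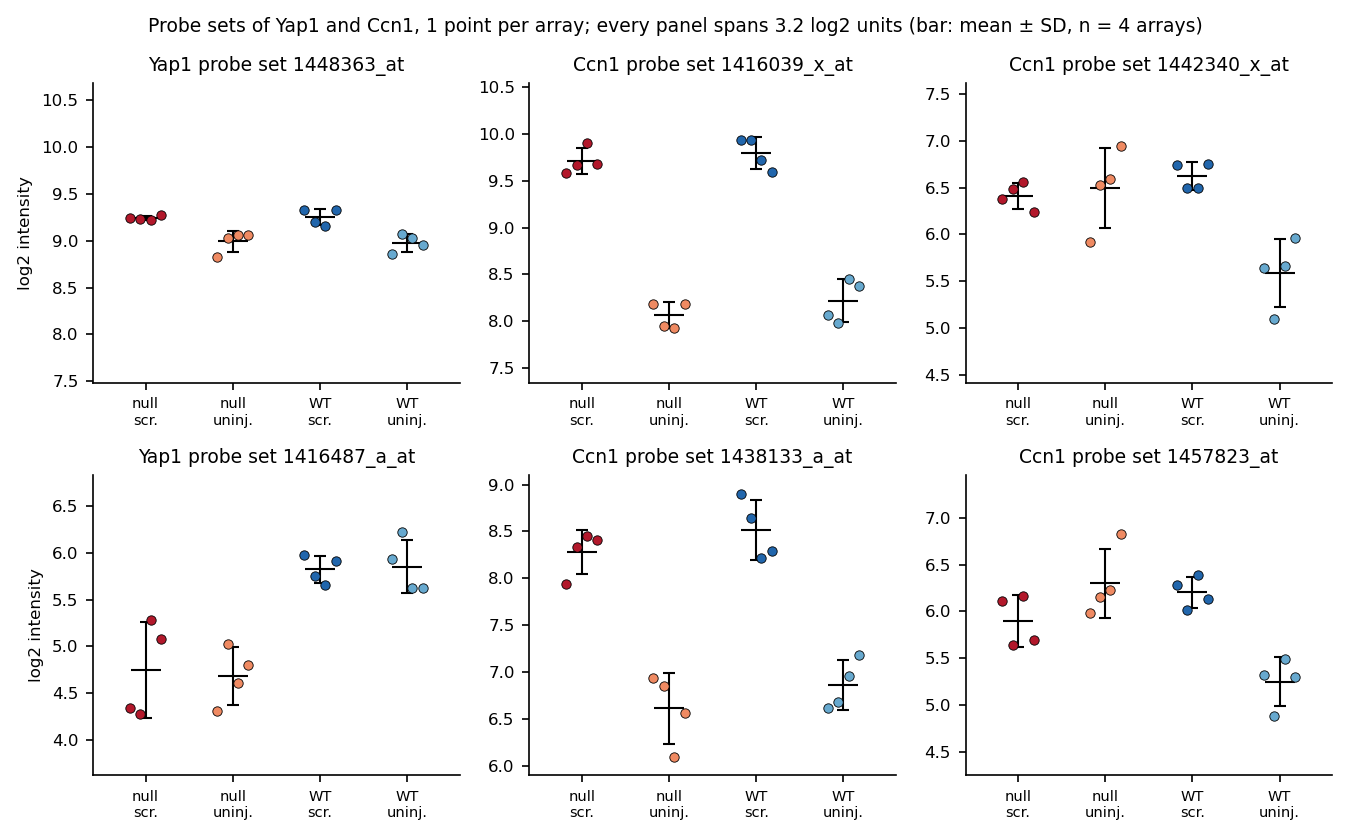
Signal (log2) on every array for the 2 Yap1 and 4 Ccn1 probe sets, one panel each, with the mean ± SD of each group of 4 (null scr., Mmp7-null scratched; WT uninj., wild-type uninjured; and so on). Yap1 1416487_a_at is lower on all Mmp7-null arrays, and Ccn1 1457823_at is low in wild-type uninjured cultures alone, while 1448363_at and 1416039_x_at separate scratched from uninjured arrays in both genotypes.

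Ccn2 (chr10:24595442-24598683) had 1 probe set, 1416953_at. It read 12.14, 12.15, 12.52 and 12.08 in Mmp7-null scratched cultures, against 11.42, 11.41, 11.35 and 11.45 in Mmp7-null uninjured cultures. It read 12.16, 12.25, 12.28 and 12.12 in wild-type scratched cultures, against 11.54, 11.56, 11.65 and 11.62 in wild-type uninjured cultures. Scratched and uninjured arrays were apart in both genotypes, and uninjured groups were tight. Ccn2 was 1.76-fold higher on scratching in Mmp7-null cultures (log2 0.81, SE 0.0763, adjusted p 7.18e-05, limma) and 1.53-fold higher in wild-type cultures (log2 0.61, SE 0.0763, adjusted p 0.000256). The responses differed by 0.20 (95% interval -0.03 to 0.43, adjusted p 0.695). Mmp7-null uninjured arrays all lay below wild-type uninjured arrays, by -0.18, which was not called (adjusted p 0.252), and scratched cultures differed by 0.02 (adjusted p 0.873).

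Ankrd1 (chr19:36111965-36119844) encodes a stretch-responsive ankyrin repeat protein and was close to background. Probe set 1420992_at read 2.90, 4.32, 3.58 and 4.20 in Mmp7-null scratched and 3.98, 2.75, 2.54 and 2.52 in Mmp7-null uninjured cultures. It read 3.56, 3.99, 4.09 and 3.23 in wild-type scratched and 2.76, 2.72, 2.74 and 2.63 in wild-type uninjured cultures. All wild-type uninjured arrays were below background and all wild-type scratched arrays above it, whereas 1 array of each Mmp7-null group crossed over. The wild-type difference was 1.68-fold with the dim group set at the background level, a value that leaves out the spread between arrays. The fitted wild-type difference was log2 1.01 (95% interval 0.265 to 1.75) and was not called (adjusted p 0.132, limma). In Mmp7-null cultures, where 1 of 4 uninjured arrays exceeded background, the fitted difference was 0.80 (adjusted p 0.243).

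A second Ankrd1 probe set, 1420991_at, read 3.82, 3.63, 3.66 and 3.62 in Mmp7-null scratched and 3.29, 2.59, 2.74 and 2.56 in Mmp7-null uninjured cultures. It read 4.55, 3.24, 2.66 and 2.60 in wild-type scratched and 2.59, 2.55, 2.66 and 2.55 in wild-type uninjured cultures. The Mmp7-null groups did not overlap, and the fitted difference was 0.89 (adjusted p 0.233 over all probe sets, limma), with 1 of 4 uninjured arrays above background. With the uninjured group set at the background level, the wild-type difference was 1.22-fold and was carried by 2 arrays. The wild-type scratched arrays at 2.66 and 2.60 were themselves below background. The fitted wild-type difference was log2 0.67 (95% interval -0.03 to 1.38), which includes no change, and was not called (adjusted p 0.449).

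Axl (chr7:25756500-25788924) encodes a receptor tyrosine kinase, the receptor for GAS6. Probe set 1423586_at read 7.19, 7.42, 7.68 and 7.55 in Mmp7-null scratched and 7.13, 7.15, 7.19 and 7.35 in Mmp7-null uninjured cultures. It read 7.79, 7.85, 7.68 and 7.35 in wild-type scratched and 7.58, 7.37, 7.41 and 7.67 in wild-type uninjured cultures. The Mmp7-null uninjured arrays all lay below the wild-type uninjured arrays, the other groups overlapped, and nothing was called. Scratching gave 0.26 in Mmp7-null (adjusted p 0.283, limma) and 0.16 in wild-type cultures (adjusted p 0.573). Mmp7-null against wild-type gave -0.30 in uninjured (adjusted p 0.203) and -0.21 in scratched cultures (adjusted p 0.291). A second probe set, 1438621_x_at, was below background on every array.

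Counted by whether groups overlapped, 3 of the 10 genes were higher on every scratched than on every uninjured array in Mmp7-null cultures and 4 in wild-type cultures, where Ankrd1 joined Yap1, Ccn1 and Ccn2. Over all genes the share higher without overlap was 4.1% in Mmp7-null and 4.21% in wild-type cultures. In uninjured cultures 4 of the 10 (Ccn2, Amotl2, Ajuba and Axl) were lower in Mmp7-null than in wild-type without overlap, against 6.22% of all genes. In scratched cultures it was 0 of the 10, against 28.5% of all genes. That share also counts genes under background, among them 4 of the 5 endothelial markers, and limma called 6.21% of all genes in either direction. All 10 genes exceeded background by the mean of their leading probe set, against 64.1% of all genes, so the shares do not cover like genes. The sign of the genotype difference was negative for 8 of the 10 in uninjured and in scratched cultures, 2 of them called in uninjured and 0 in scratched cultures. The median difference over all genes was -0.01 in uninjured and -0.04 in scratched cultures. The share of all genes with a negative sign was not counted.

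**Figure D3:**
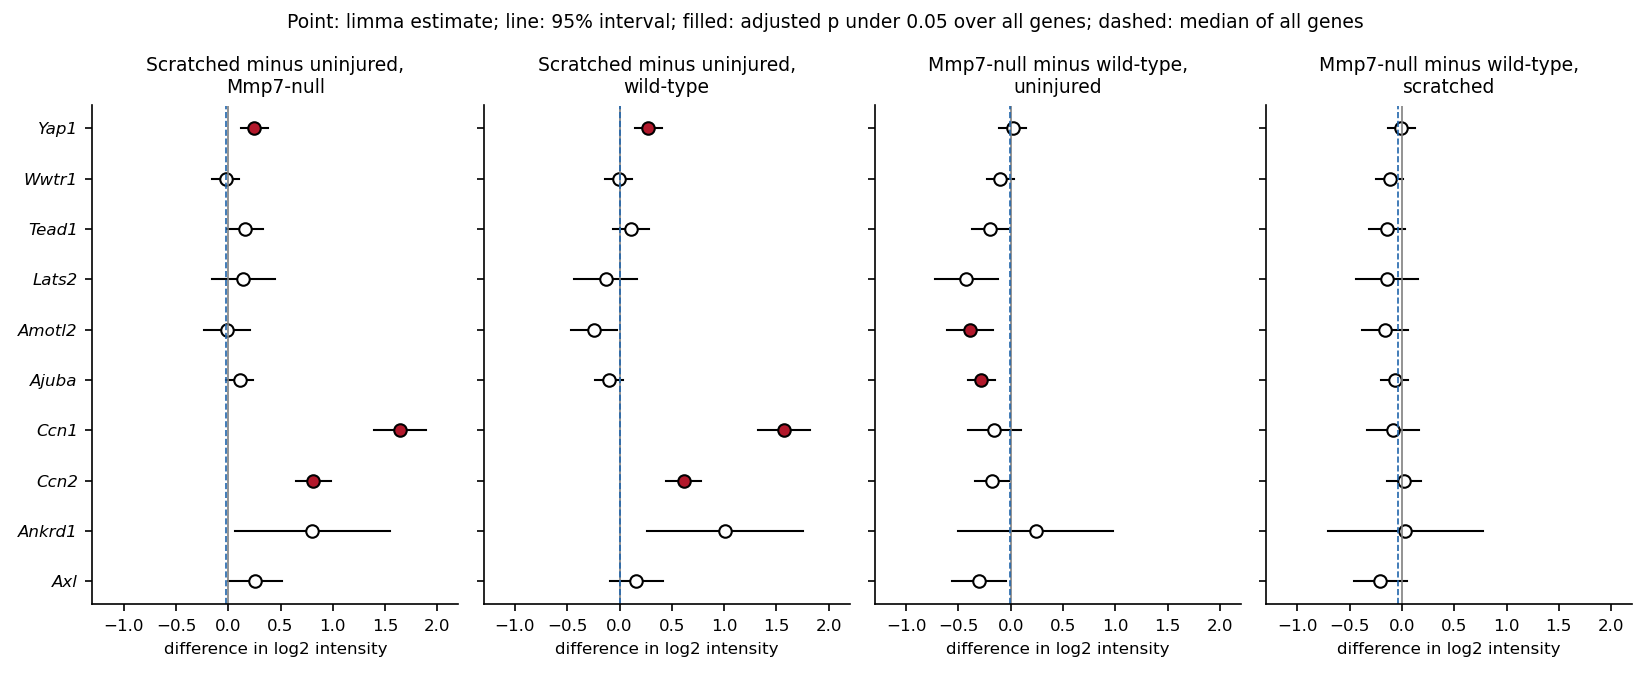
Differences (log2, limma estimate with 95% interval) of the 10 genes in 4 comparisons: scratched minus uninjured in Mmp7-null and in wild-type cultures, and Mmp7-null minus wild-type in uninjured and in scratched cultures. Filled points passed an adjusted p of 0.05 and the dashed line is the median of all genes; Ccn1, Ccn2 and Yap1 pass for scratching, and Amotl2 and Ajuba for genotype in uninjured cultures.

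Other genes of the Hippo pathway were taken as a list of 32, of which 31 were measured and 25 were above background. On scratching, 2 were higher and 1 was lower in Mmp7-null cultures, and 1 was higher and 2 were lower in wild-type cultures, with medians of -0.01 and -0.05. Of all genes, 4.72% and 4.85% were called in these comparisons. Amot, for the angiomotin that AMOTL2 resembles, was higher by 0.75 in Mmp7-null (adjusted p 0.00806, limma) and by 0.86 in wild-type cultures (adjusted p 0.00231). Vgll3, a TEAD cofactor, was higher by 0.58 in Mmp7-null cultures (adjusted p 0.0282). Mob1b, an activator of LATS kinases, fell by 0.32 in Mmp7-null (adjusted p 0.0118) and by 0.25 in wild-type cultures (adjusted p 0.0379). Fat1, an atypical cadherin upstream of the pathway, fell by 0.34 in wild-type cultures (adjusted p 0.0181). Leaving out 1 array at a time, the Mob1b call was kept in 16 of 16 fits in Mmp7-null and in 6 in wild-type cultures, that of Vgll3 in 12 and that of Fat1 in 13, and both Amot calls in 16. By the mean of all its probe sets, Mob1b was -0.20 in Mmp7-null cultures (adjusted p 0.252). Under 11 alternatives other than leaving out 1 array, both Amot calls held. Their log2 differences were as low as 0.22 in Mmp7-null and 0.32 in wild-type cultures.

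Between genotypes, 4.79% of all genes were called in uninjured cultures (2.5% lower), with a median difference of -0.01 over all genes. The share of all genes with a negative difference was not counted. Of the 31 other Hippo genes, 26 had a negative difference in uninjured cultures, with a median of -0.12, and 3 were called, all lower in Mmp7-null. These were Wwc1 (log2 -0.34, adjusted p 0.0186, limma) and Wwc2 (-0.29, adjusted p 0.0496), which encode KIBRA family scaffolds, and Ptpn14 (-0.30, adjusted p 0.00489), which encodes a phosphatase that binds YAP. In scratched cultures the median was -0.03 and 2 were lower in Mmp7-null, Amot (-0.53, adjusted p 0.0407) and Mob1b (-0.24, adjusted p 0.0435). There 6.21% of all genes were called, and the median over all genes was -0.04. Blocked by spike-in set, 0 of the 3 and 0 of the 2 remained called. Leaving out 1 array at a time, the call was kept in 15 of 16 fits for Wwc1, 3 for Wwc2, 4 for Amot and 3 for Mob1b.

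Other targets reported for YAP and TAZ were a list of 28, of which 26 were measured and 25 were above background. On scratching, 6 were higher and 2 lower in Mmp7-null cultures, and 4 were higher and 4 lower in wild-type cultures, with medians of 0.02 and 0.03. Over all genes the shares called were 4.72% and 4.85%. Edn1, for endothelin, was higher by 1.02 in Mmp7-null (adjusted p 4.41e-06, limma) and by 1.50 in wild-type cultures (adjusted p 3.09e-08). Birc5, for the mitotic protein survivin, was higher by 0.62 in Mmp7-null (adjusted p 0.00458) and by 1.09 in wild-type cultures (adjusted p 3.07e-05). F3, for tissue factor, was higher by 0.70 in Mmp7-null (adjusted p 0.00028) and by 0.59 in wild-type cultures (adjusted p 0.000514). Gadd45a, a DNA damage response gene, was higher by 0.46 in Mmp7-null (adjusted p 0.00795) and by 0.87 in wild-type cultures (adjusted p 3.52e-05). Nuak1, for a kinase, was higher by 0.81 in Mmp7-null cultures (adjusted p 0.0495), a call kept in 2 of 16 fits that left out 1 array. Igfbp3 was also higher in Mmp7-null cultures (adjusted p 0.0468), a call kept in 3 of 16 such fits.

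Other targets fell on scratching. Cav1, for caveolin, fell by 1.09 in Mmp7-null (adjusted p 2.47e-05, limma) and by 0.53 in wild-type cultures (adjusted p 0.00316). Tgfb2, for a transforming growth factor beta ligand, fell by 0.35 in Mmp7-null (adjusted p 0.0375, kept in 9 of 16 fits that left out 1 array) and by 0.78 in wild-type cultures (adjusted p 0.000117). Fjx1 (adjusted p 0.0276) and Fgf1 (adjusted p 0.0324) fell in wild-type cultures, each call kept in 10 of 16 such fits. The called targets thus went both ways on scratching.

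For Mmp7-null against wild-type, 1 was higher and 3 were lower in uninjured cultures, and 1 was higher and 5 were lower in scratched cultures, with medians of -0.10 and -0.05. Over all genes 4.79% and 6.21% were called. Fstl1, for a secreted follistatin-like glycoprotein, was higher in Mmp7-null (1.28, adjusted p 0.0165, in uninjured and 1.16, adjusted p 0.0224, in scratched cultures). In uninjured cultures Tgfb2 (-0.47, adjusted p 0.00718), Fjx1 (-0.38, adjusted p 0.0311) and Nuak2 (-0.25, adjusted p 0.0488) were lower. In scratched cultures Cav1 (-0.63, adjusted p 0.00095), Birc5 (-0.44, adjusted p 0.0241) and Rbms3 (-0.40, adjusted p 0.0233) were lower, with Gadd45a (-0.39) and Edn1 (-0.32). Leaving out 1 array, the Fstl1 call was kept in 15 of 16 fits in uninjured and 11 in scratched cultures, Fjx1 in 10, Nuak2 in 4, Birc5 in 12 and Rbms3 in 13. Blocked by spike-in set, 6 of 8 and 8 of 8 scratch calls and 0 of 4 and 1 of 6 genotype calls remained, the last being Cav1 (adjusted p 0.042). Each genotype comparison shares arrays with both scratch comparisons.

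**Figure D4:**
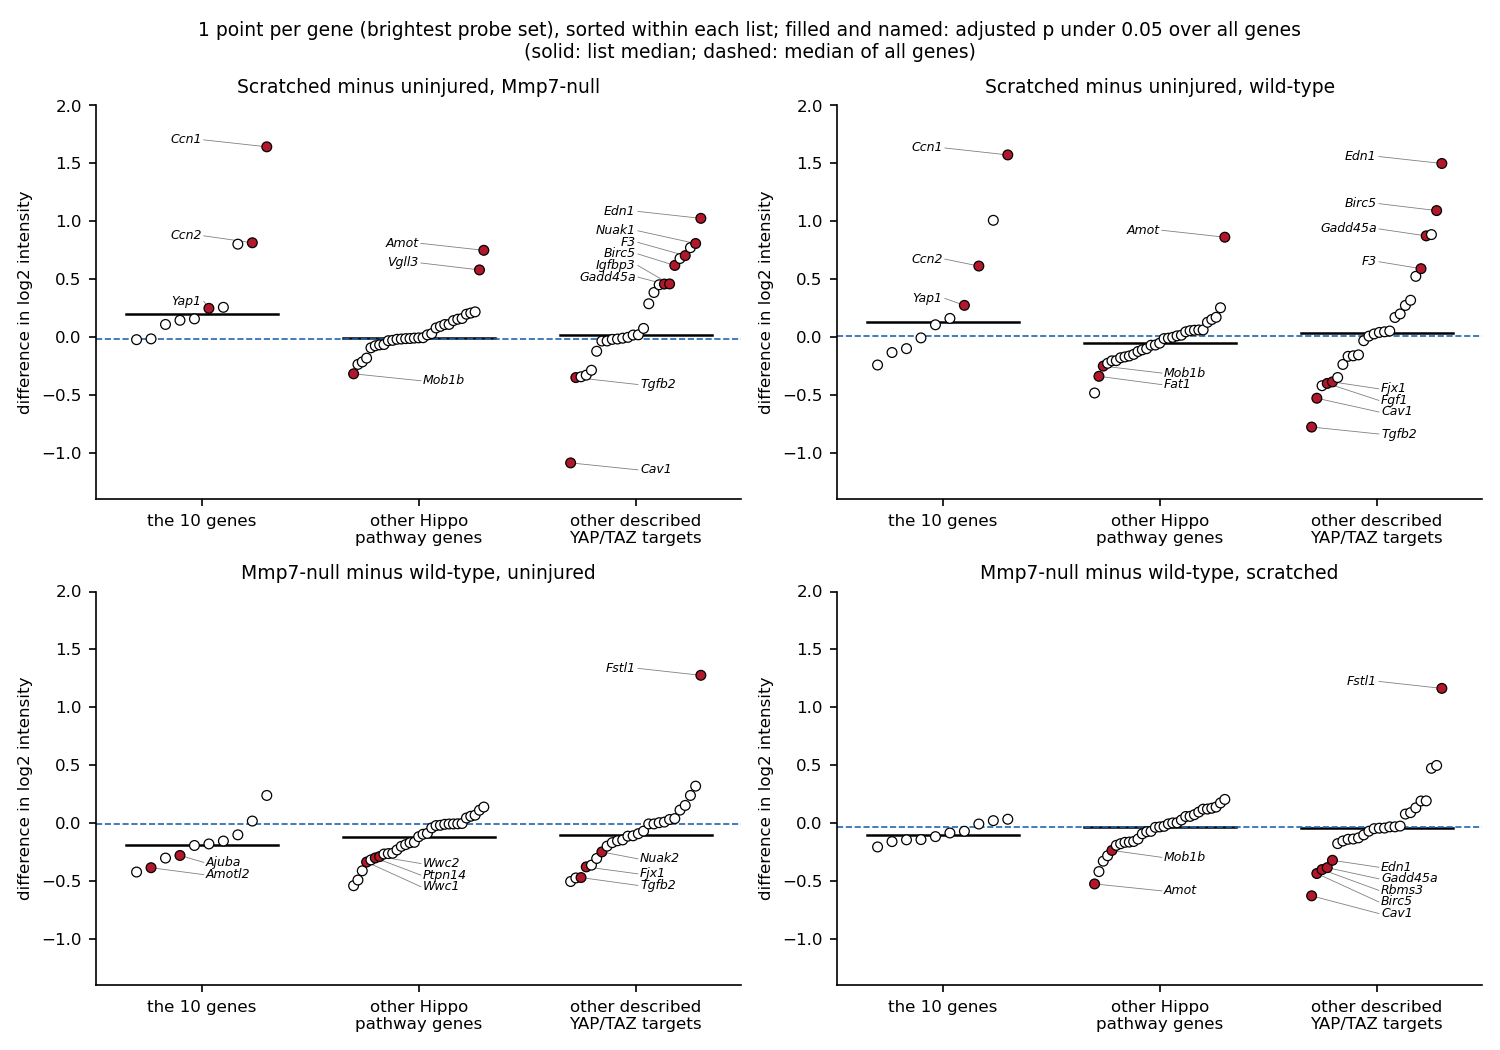
Log2 differences of the 10 genes, the 31 other Hippo pathway genes and the 26 other targets in the same 4 comparisons, a point per gene, filled where the adjusted p was under 0.05. Called targets lie on both sides of 0 on scratching, with Edn1 highest and Cav1 or Tgfb2 lowest among them.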

How the data were processed

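Transcripts were measured in 16 cultures, 1 array each, in 4 groups of 4. Per the submitters' processing notes the signals are RMA intensities (RMA corrects background, quantile-normalizes arrays and combines the probes of a probe set); its version is not given in the sources used here. The deposited table holds these intensities on a linear scale (array medians 9.357 to 10.16). The labels name the smaller (A) version of an Affymetrix mouse array, whereas the table's 45101 probe sets are those named by the annotation of the larger version.

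The intensities were put on the log2 scale. Of 45037 probe sets other than the 64 controls, 34945 had 1 gene symbol, 932 had several and 9160 had none. A gene was its probe set with the highest mean (18193 genes, 9010 with several probe sets), with no filter on dim genes. limma 3.58.1 in R 4.3.3 fitted 1 mean per group (12 residual degrees of freedom) with eBayes and 2-sided tests. Calls were an adjusted p under 0.05 (Benjamini-Hochberg over all genes, or over all 45037 probe sets for probe sets other than the leading one). Background was the 95th percentile of 162 values of absent-transcript controls. The fit was tested on simulated data. The number of arrays limits the precision: the median SE of a scratch difference was 0.0799.

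The 10 genes, the lists of other Hippo genes, other targets, Mmp7 neighbours and cell markers, and the arrays doubted were chosen with earlier results of these data known. The text names all 10 genes with every probe set, Mmp7, and, per list and comparison, the 4 largest called genes of the lists (also their other calls). Alternatives were a replicate or spike-in set block, fewer arrays, no dim genes, other probe set rules, other variance models, array weights and other normalizations. A Lats2 probe set shared with another gene was not used.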

Additional observations from a re-analysis of the deposited data

Results flagged for a closer look

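In 76 groups of 4 arrays (19 probe sets of the 10 genes, 4 groups each), 4 arrays lay far from the others of their group, as the gap to the nearest array over the whole range of the group exceeded Dixon's critical value; chance marks about 5% of groups. Yap1 at 1448363_at read 8.83 in Mmp7-null uninjured replicate 1, below the nearest of its group at 9.03. Wwtr1 at 1417818_at read 10.55 in Mmp7-null scratched replicate 1, below the nearest at 10.82. Ccn2 at 1416953_at read 12.52 in Mmp7-null scratched replicate 3, above the nearest at 12.15. Ankrd1 at 1420992_at read 3.98 in Mmp7-null uninjured replicate 1, above the nearest at 2.75.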

How the results depend on the processing

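Ccn1 and Ccn2 kept their scratch calls in both genotypes under the alternatives tried, except Ccn2 within the wild-type Phe arrays (0.62, 1 array against 1). The mean of all probe sets lowered the Ccn1 difference in Mmp7-null cultures to 0.71, against 1.64. Leaving out 1 array gave 2 to 3 of the 10 genes called in each scratch comparison, where 3 were called, and Yap1 was the gene lost. Within the wild-type Phe arrays, 1 scratched against 1 uninjured, 1 of the 10 was called. For Mmp7-null against wild-type in uninjured cultures, where 2 were called, leaving out 1 array gave 0 to 3. The spike-in set as a block and the Phe arrays alone gave 0, every probe set on its own and centring on array medians gave 1, and the mean of all probe sets gave 4. That mean gave 1 in scratched cultures, where 0 had been called, and turned the Yap1 difference in uninjured cultures to -0.57, against 0.02. The replicate block gave 1 in uninjured cultures and ended the Yap1 call in Mmp7-null (adjusted p 0.0516) and the Amotl2 call (adjusted p 0.0654). Samples with 1 number did not pair: correlations of their deviations ran from -0.218 to 0.307, and not every sample correlated best with its own number. Using only the 8 arrays compared, Yap1 was not called in Mmp7-null (adjusted p 0.0713) or wild-type cultures (0.0604). Over all genes, the spike-in block gave 57 genotype calls in uninjured (872 otherwise) and 252 in scratched cultures (1130 otherwise). Using only the 8 arrays gave 402 scratch calls in Mmp7-null cultures (859 otherwise) and 527 genotype calls in scratched cultures. Without the 3 doubted arrays there were 1310 genotype calls in uninjured cultures, and array weights gave 1405 scratch calls in wild-type (883 otherwise) and 1745 genotype calls in scratched cultures. The 24 calls for the difference of responses ran from 5 (centring) to 100 (array weights). Centring moved the higher share of calls to 36.63% (52.55% otherwise) for scratching in wild-type and to 65.5% (53.01% otherwise) for genotype in scratched cultures. The cause of these shifts was not tested. All wild-type uninjured signals of Ankrd1 were under background, which leaves the size of its wild-type scratch difference uncertain, and 3 of 4 Mmp7-null uninjured arrays were also under it.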
